A study of Mus musculus with 10 samples.

Results

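The genes described here are the 8 that write, maintain or oxidize 5-methylcytosine in mouse DNA: the methyltransferases Dnmt1, Dnmt3a and Dnmt3b, their cofactors Dnmt3l and Uhrf1, and the dioxygenases Tet1, Tet2 and Tet3. Every probe set was taken whose only gene symbol in the platform annotation is one of these names, which gave 20 probe sets for 8 genes, out of 34945 single-symbol probe sets for 18193 genes on the array. The cells were mouse embryonic stem cells (ESCs) of line CJ9, derived from strain 129SvJ, infected with lentivirus carrying Wapal shRNA1, Wapal shRNA2, Smc3 shRNA1, Smc3 shRNA2 or Empty Vector, with 2 arrays in each of these 5 groups. Smc3 is a core subunit of the cohesin ring, and Wapal (gene symbol Wapl) releases cohesin from chromatin. All groups, Empty Vector included, shared the viral infection for 48 h with polybrene at 10 µg/mL and then puromycin at 4 µg/mL in LIF medium, and were cultured for 48 h after infection. A replicate is called biological in the labels, but whether each came from its own infection is not stated, so the p-values measure the spread between these arrays, which may be technical.

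DNA methylation at CpG sites is copied after replication by Dnmt1, which the RING-finger protein Uhrf1 guides to hemimethylated CpGs. New methylation is laid down by Dnmt3a and Dnmt3b, and Dnmt3l, which has no catalytic activity of its own, stimulates both. Tet enzymes oxidize the methyl group, which opens a way to its removal, and mouse ESCs are known for high Tet1 and Tet2 and low Tet3. The arrays measured RNA, and DNA methylation itself was not measured.

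The targeted genes followed the labels. All values are RMA intensities on a linear scale, changes are differences of log2 intensity, and adjusted p-values are limma's, over all probe sets. Wapl (1434835_at) read 929 and 1005 on the Wapal shRNA1 arrays and 235 and 217 on the Wapal shRNA2 arrays, against 2500 and 2648 in Empty Vector (adjusted p = 0.000123), and Smc3 (1450950_at) read between 176 and 223 on the 4 Smc3 shRNA arrays, against 1536 and 1555 in Empty Vector (adjusted p = 3.26e-05). A further listing by the authors swaps the names of Wapal shRNA1 replicate 2 and of replicate 1 of Wapal shRNA2. The mean over both Wapal hairpins is the same under either naming, and values by hairpin follow the labels used here. Under these labels the Wapl values of a hairpin lie close together (929 and 1005, and 235 and 217), whereas the other naming would put 929 beside 235 and 1005 beside 217. No label names a batch, but the values split the arrays into 2 sides: Empty Vector replicate 1 with Wapal shRNA1 and Smc3 shRNA2, and Empty Vector replicate 2 with Wapal shRNA2 and Smc3 shRNA1. Comparisons between hairpins run along this split and cannot be told apart from it. Where the side is used as a block below, the fit gave each target a mean of its own, with its hairpins pooled, and added the side. Since the side was read from these same values and each hairpin lies wholly on a side, such a fit is no independent check for a batch. The sources do not say whether the Smc3 arrays were processed together with the others, and such a batch cannot be told apart from Smc3 depletion either. All 10 ESC markers read at or above log2 6 on every array, with a summed intensity of 52642 to 59425 in Wapal depletion and 49225 to 53173 in Smc3 depletion, against 58991 and 61277 in Empty Vector. Of 11 fibroblast markers, for feeder cells, 1 or 2 did so, with sums of 313 to 377 and 342 to 411, against 380 and 438. Klf4, Esrrb and Sall4 fell in Wapal depletion and Nanog, Klf4, Esrrb and Zfp42 in Smc3 depletion, and the part of this in the values below was not tested. Of all genes, 4.93% fell in Wapal and 3.94% in Smc3 depletion. Klf4 stood at -0.24 with Smc3 shRNA1 (adjusted p = 0.306) and at -1.35 with shRNA2 (adjusted p = 0.00106). Nanog stood at -0.47 and -0.96. The Smc3 hairpins differed in both genes (adjusted p = 0.00226 for Klf4 and 0.0226 for Nanog). In these bulk samples, fewer cells of a type and less RNA per cell cannot be told apart.

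Promoter sequence is shown for the genes that changed in Smc3 depletion, since CpGs are the sites on which this machinery acts. Each is the stretch of 250 bases before a RefSeq transcription start (build GRCm38.p6), read 5′ to 3′ on the strand of the gene, with every CpG in capitals. All 8 genes matched by symbol, with 15 listed starts in all. Dnmt3a and Dnmt3l have 3 starts each, of which the most downstream start of Dnmt3a (chr12:3891494-3891743, plus strand) and the first of Dnmt3l (chr10:78042037-78042286, plus strand) are given. The other starts held 38 and 40 CpGs for Dnmt3a and 4 and 3 for Dnmt3l. Dnmt3b (chr2:153649199-153649448, plus strand) and Tet2 (chr3:133544391-133544640, minus strand) have 1 start. The sources do not tie a start to a probe set.
Dnmt3a: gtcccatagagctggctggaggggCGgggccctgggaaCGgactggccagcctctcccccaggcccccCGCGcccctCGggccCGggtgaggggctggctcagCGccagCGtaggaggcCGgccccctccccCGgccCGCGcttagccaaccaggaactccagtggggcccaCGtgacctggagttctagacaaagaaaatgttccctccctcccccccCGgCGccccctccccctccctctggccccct
Dnmt3b: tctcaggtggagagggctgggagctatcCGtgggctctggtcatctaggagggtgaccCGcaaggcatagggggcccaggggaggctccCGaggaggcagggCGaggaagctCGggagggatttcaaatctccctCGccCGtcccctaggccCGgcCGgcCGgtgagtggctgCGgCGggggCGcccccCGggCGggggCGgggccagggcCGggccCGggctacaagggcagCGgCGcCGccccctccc
Dnmt3l: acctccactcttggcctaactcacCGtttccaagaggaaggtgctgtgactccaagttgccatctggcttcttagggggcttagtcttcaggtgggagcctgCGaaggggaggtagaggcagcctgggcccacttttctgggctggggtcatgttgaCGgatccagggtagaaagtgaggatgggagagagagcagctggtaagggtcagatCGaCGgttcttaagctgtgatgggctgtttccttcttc
Tet2: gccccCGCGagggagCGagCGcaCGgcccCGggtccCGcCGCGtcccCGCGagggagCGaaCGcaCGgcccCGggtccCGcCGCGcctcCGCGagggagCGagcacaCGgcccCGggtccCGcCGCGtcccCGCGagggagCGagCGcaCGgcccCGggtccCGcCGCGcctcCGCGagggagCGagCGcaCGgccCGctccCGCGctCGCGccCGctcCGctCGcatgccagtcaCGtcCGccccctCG

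The Tet2 stretch held 51 CpGs, more than 99.9% of 32851 mouse promoters of the same length, whose median was 6. Dnmt3b held 21 CpGs (above 83.7% of promoters), Dnmt3a 15 (above 72.7%) and Dnmt3l 5 (above 44.4%). The printed stretches of the 3 genes that rose in Smc3 depletion thus ran from near the median to CpG-rich. That of the gene that fell had the most CpGs of the 4. The place of Dnmt3a rests on the start shown, since its other starts, with 38 and 40 CpGs, were above 98.1% and 98.7% of promoters. The palindrome CACGTG, an E-box that reads the same on both strands, occurred once in the printed Dnmt3a stretch and in none of the other 3 printed, against 6.02% of all promoters. The count depends on the start, since the second start of Dnmt3l also held 1 and the other starts of Dnmt3a held 0. The GC box GGGCGG, or CCGCCC on the other strand, occurred at 3 places in Dnmt3b, at 1 in Dnmt3a and at 1 in Tet2, and 32.7% of promoters held it. It occurred at 5 and 4 places at the other Dnmt3a starts, and at 2 and 0 at the other Dnmt3l starts, whose printed stretch held none. These are matches of letters and no evidence of a bound factor.

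Smc3 depletion raised the RNA of the de novo methylation genes Dnmt3a, Dnmt3b and Dnmt3l and lowered that of Tet2. Wapal depletion lowered Tet2 too. By the brightest probe set of each gene and limma's moderated test with an adjusted p under 0.05, 3 of 8 members rose and 1 fell with Smc3 shRNAs, where 6.08% of all genes rose and 3.94% fell. With Wapal shRNAs 1 of 8 fell, where 4.93% of all genes fell, and none rose, where 2.63% of all genes rose. At an unadjusted p under 0.05, 2 rose. No share of all genes is given at that threshold, here or for the unadjusted counts below. Both comparisons share the same 2 Empty Vector arrays. Empty Vector is the parental virus with no shRNA, and none of the 5 groups carried a non-targeting shRNA. A change shared by all hairpins thus cannot be told apart from an effect of carrying any shRNA. The median log2 change over all genes was 0.012 in each.

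**Figure D1:**
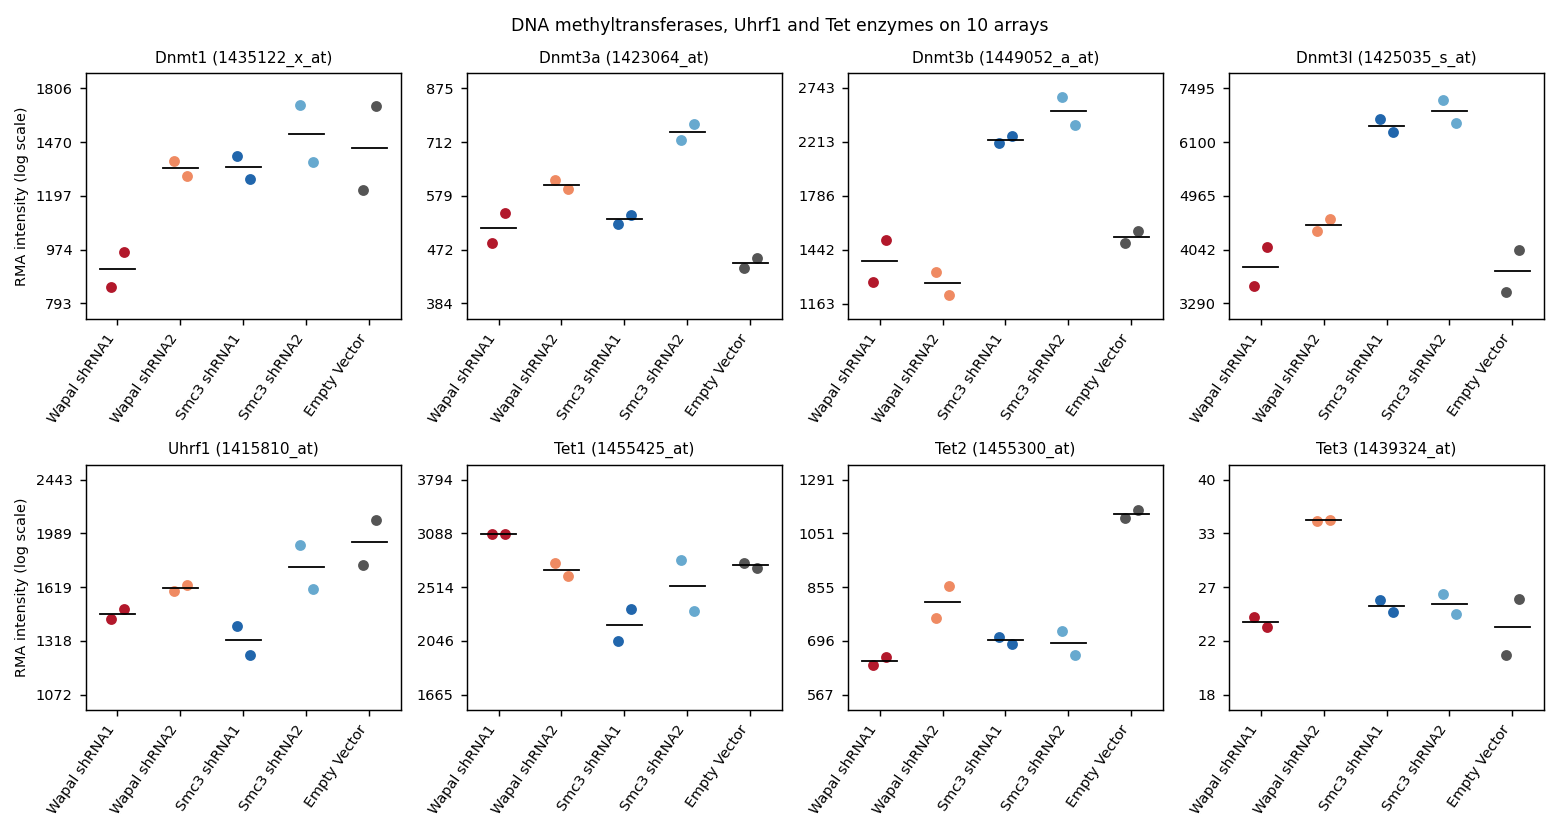
RMA intensity (log axis) of the brightest probe set of each of the 8 genes on all 10 arrays. Points are arrays, 2 per group, and black lines are the geometric means of a group. Dnmt3b and Dnmt3l sit higher on all 4 Smc3 shRNA arrays than on any other array, and Tet2 is lower on all 8 shRNA arrays (635 to 859) than on the Empty Vector arrays (1115 and 1151).

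Of the maintenance genes, Dnmt1 (1435122_x_at) read 845 and 967 on the Wapal shRNA1 arrays and 1368 and 1294 on the Wapal shRNA2 arrays, against 1223 and 1690 in Empty Vector. The Smc3 shRNA1 arrays gave 1397 and 1277 and the Smc3 shRNA2 arrays 1696 and 1362. The Wapal shRNA1 arrays were the lowest of the 10, while the Empty Vector arrays lay 0.47 apart in log2, which spanned both Wapal shRNA2 arrays. The log2 change was -0.39 ± 0.139 (SE) in Wapal depletion (adjusted p = 0.139) and -0.014 ± 0.149 in Smc3 depletion (adjusted p = 0.975). Within the sides of the array split, Wapal shRNA1 stood at -0.44 and Wapal shRNA2 at -0.35 against their own Empty Vector array. In the fit with the side as a block, which pools the hairpins and takes the side from these values, the Wapal change had an adjusted p of 0.046. Smc3 shRNA1 stood at -0.34 and Smc3 shRNA2 at 0.31 there, in opposite directions. Probe sets ending in x_at can share probes with other transcripts, but the other probe sets of Dnmt1 gave like values, -0.37 and -0.29 in Wapal depletion and 0.0059 and -0.066 in Smc3 depletion, none of them called.

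Uhrf1, the partner that brings Dnmt1 to newly replicated DNA, read 1431 and 1487 on the Wapal shRNA1 arrays and 1593 and 1633 on the Wapal shRNA2 arrays at 1415810_at, against 1763 and 2095 in Empty Vector. All 4 Wapal shRNA arrays were below both Empty Vector arrays. The change of -0.33 ± 0.103 did not pass the test (adjusted p = 0.105). The Smc3 shRNA1 arrays gave 1394 and 1251 and the Smc3 shRNA2 arrays 1903 and 1608, so that the hairpins stood apart, and 3 of the 4 arrays were below both Empty Vector arrays. For both hairpins together the log2 change was -0.34 ± 0.117 (adjusted p = 0.134). Its other probe set, 1415811_at, gave -0.39 in Wapal depletion and -0.49 in Smc3 depletion (adjusted p = 0.072 and 0.0597).

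Among the de novo enzymes, Dnmt3a (1423064_at) read 521 and 539 on the Smc3 shRNA1 arrays and 718 and 764 on the Smc3 shRNA2 arrays, against 439 and 458 in Empty Vector. Every Smc3 array was above both Empty Vector arrays, and shRNA2 lay above shRNA1. Dnmt3a rose by 0.48 ± 0.0889 in log2, or 39.7% (adjusted p = 0.015). All 5 Dnmt3a probe sets rose, the other 4 by 0.53 to 0.59 (adjusted p = 0.0161 to 0.031). The call of 1423064_at did not hold without Empty Vector replicate 1 (adjusted p = 0.0753), Smc3 shRNA1 replicate 2 (0.0569) or Smc3 shRNA2 replicate 2 (0.0623), with changes of 0.45 to 0.47, nor with the side of the array split as a block (adjusted p = 0.0688). Within the sides, the change was 0.21 for shRNA1 and 0.75 for shRNA2.

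In Wapal depletion the same Dnmt3a probe set read 484 and 543 with shRNA1 and 615 and 594 with shRNA2, again above both Empty Vector arrays. The change of 0.31 ± 0.0954 did not pass (adjusted p = 0.0965). A second probe set, 1423066_at, read 529 and 487 on the Wapal shRNA1 arrays and 637 and 625 on the Wapal shRNA2 arrays, against 393 and 424 in Empty Vector. It rose by 0.47 ± 0.0937 (adjusted p = 0.0299). The remaining 3 Dnmt3a probe sets gave 0.14 to 0.20 and were not called.

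Dnmt3b, the de novo enzyme that mouse embryos need to develop to term, read 2204 and 2265 on the Smc3 shRNA1 arrays and 2643 and 2365 on the Smc3 shRNA2 arrays (1449052_a_at), against 1483 and 1553 in Empty Vector. The Smc3 arrays did not overlap with any other array. Dnmt3b rose by 0.64 ± 0.0932, or 55.7% (adjusted p = 0.00575), and its probe set 1418351_a_at by 0.64 ± 0.0943 (adjusted p = 0.00602). Against the Empty Vector array of the same side, shRNA1 stood at 0.52 and shRNA2 at 0.75. On the Wapal arrays the first probe set read 1269 and 1500 (shRNA1) and 1319 and 1207 (shRNA2), which overlapped with Empty Vector. Its Wapal change was -0.20 ± 0.105 (adjusted p = 0.291) and that of 1418351_a_at -0.32 ± 0.0928 (adjusted p = 0.0855).

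Dnmt3l, measured by 1 probe set (1425035_s_at), read 6666 and 6339 on the Smc3 shRNA1 arrays and 7179 and 6566 on the Smc3 shRNA2 arrays, against 3434 and 4029 in Empty Vector. By the brightest probe sets, this was the largest change among the 8 genes in Smc3 depletion, a rise of 0.84 ± 0.103, or 79.6% (adjusted p = 0.00278). Within the sides, it was 0.69 for shRNA1 and 1.00 for shRNA2. The Wapal shRNA1 arrays gave 3510 and 4076 and the Wapal shRNA2 arrays 4339 and 4553. Of these 4 arrays, 3 were above both Empty Vector arrays, and the change was 0.14 ± 0.111 (adjusted p = 0.487).

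**Figure D2:**
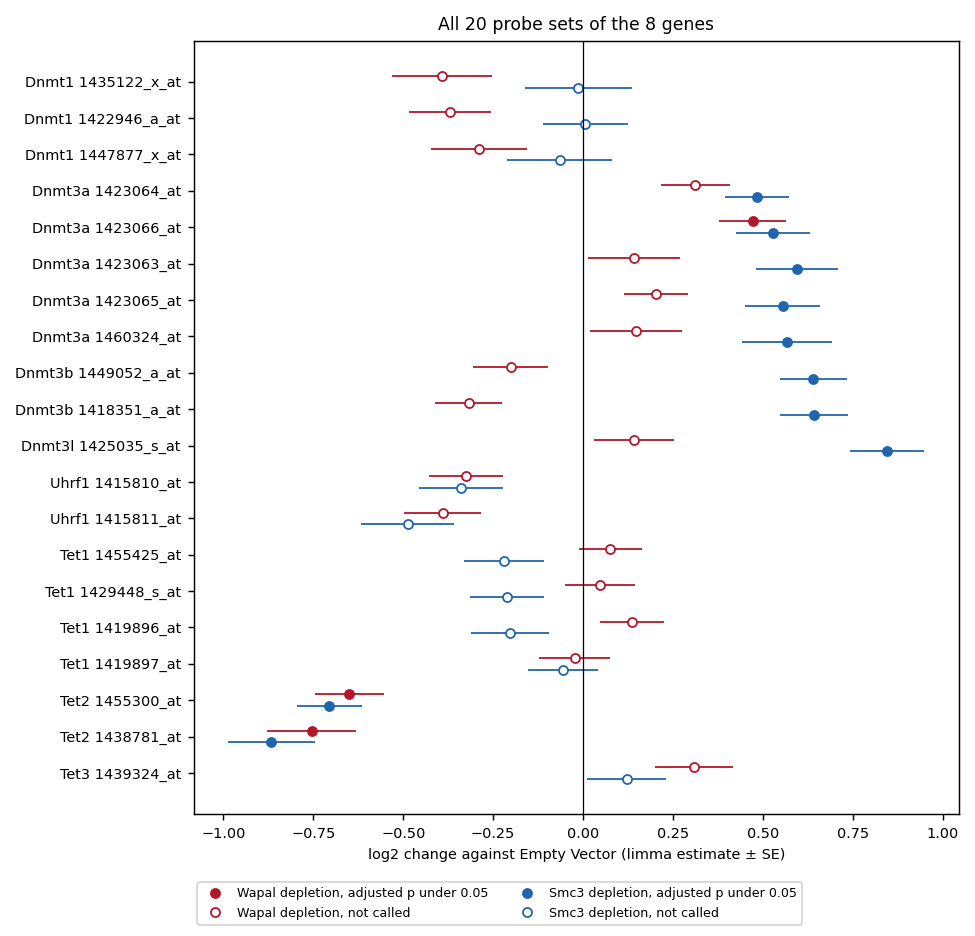
Log2 change against Empty Vector (limma estimate ± SE, 4 shRNA arrays against 2) for all 20 probe sets in Wapal depletion (red) and Smc3 depletion (blue). Filled points passed an adjusted p under 0.05: all 5 Dnmt3a, both Dnmt3b, the Dnmt3l and both Tet2 probe sets in Smc3 depletion, and both Tet2 probe sets and 1 Dnmt3a probe set in Wapal depletion.

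Tet2, the oxidase that lacks a CpG-binding CXXC domain of its own, was the member that fell with the shRNAs against either target. At 1455300_at it read 635 and 654 on the Wapal shRNA1 arrays, 761 and 859 on the Wapal shRNA2 arrays, 708 and 689 on the Smc3 shRNA1 arrays and 724 and 660 on the Smc3 shRNA2 arrays, against 1115 and 1151 in Empty Vector. None of the 8 shRNA arrays overlapped with Empty Vector. Tet2 fell by 0.65 ± 0.0955 in Wapal depletion, a change of -36.3% (adjusted p = 0.0117), and by 0.71 ± 0.0907 in Smc3 depletion, a change of -38.7% (adjusted p = 0.00344). Without Empty Vector replicate 1 the Wapal change was -0.67 and missed the threshold (adjusted p = 0.0506). The other probe set, 1438781_at, read between 625 and 732 on the shRNA arrays, against 1350 and 1034 in Empty Vector. It fell by 0.75 (adjusted p = 0.0171) in Wapal depletion and by 0.87 (adjusted p = 0.00455) in Smc3 depletion. Within the sides 1455300_at changed alike in sign, by -0.79 and -0.51 for Wapal shRNA1 and shRNA2 and by -0.72 and -0.69 for Smc3 shRNA1 and shRNA2.

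Tet1, whose CXXC domain binds CpG-rich DNA, read 3087 and 3085 on the Wapal shRNA1 arrays and 2754 and 2623 on the Wapal shRNA2 arrays (1455425_at), against 2756 and 2709 in Empty Vector. The Smc3 shRNA1 arrays gave 2047 and 2313 and the Smc3 shRNA2 arrays 2786 and 2293. The Wapal shRNA1 arrays were the highest, and 3 of the 4 Smc3 arrays were below all others. Neither change passed, 0.076 ± 0.0885 in Wapal depletion (adjusted p = 0.651) and -0.22 ± 0.111 in Smc3 depletion (adjusted p = 0.301). Tet3, measured by a single dim probe set (1439324_at), read 24 and 23 on the Wapal shRNA1 arrays, 34 and 34 on the Wapal shRNA2 arrays, 25 and 24 on the Smc3 shRNA1 arrays and 26 and 24 on the Smc3 shRNA2 arrays, against 20 and 25 in Empty Vector. At this level, under log2 6, a change in Tet3 is poorly measured, and neither change passed (0.31, adjusted p = 0.139, and 0.12, adjusted p = 0.599).

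To ask whether the depletions differed, the mean over the Wapal hairpins was set against the mean over the Smc3 hairpins, without the Empty Vector arrays in the difference. Of the 8 genes, 1 was higher and 3 were lower in Wapal depletion, where 7.66% of all genes were higher and 14.8% lower. Dnmt3b was lower, with a log2 difference of -0.84 ± 0.0802 (adjusted p = 0.000115), and so was Dnmt3l, with -0.70 ± 0.0831 (adjusted p = 0.000357). For both, no Wapal shRNA array reached the lowest Smc3 shRNA array, and the calls held whichever array was left out. The probe set 1418351_a_at of Dnmt3b gave -0.96 (adjusted p = 3.89e-05). Dnmt1 was lower with a difference of -0.38 ± 0.113 (adjusted p = 0.0427), although the arrays overlapped. That call was lost without any 1 Wapal shRNA array, either Smc3 shRNA1 array or Smc3 shRNA2 replicate 1 (adjusted p = 0.0614 to 0.151), and with the side as a block (adjusted p = 0.112). Tet1 was higher in Wapal depletion, by 0.30 ± 0.0815 (adjusted p = 0.03), a call lost without any 1 Wapal shRNA array, Smc3 shRNA1 replicate 1 or Smc3 shRNA2 replicate 2 (adjusted p = 0.0622 to 0.111).

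For Tet2, the difference between Wapal and Smc3 depletion was 0.055 ± 0.0721 (adjusted p = 0.651), for Uhrf1 0.013 ± 0.0863 (adjusted p = 0.94) and for Tet3 0.19 ± 0.0812 (adjusted p = 0.143). Dnmt3a gave mixed results by probe set. Its brightest stood at -0.17 ± 0.0706 (adjusted p = 0.126) and 1423066_at at -0.055 (adjusted p = 0.679). The remaining 3 were lower in Wapal depletion, with differences of -0.45 to -0.35 (adjusted p = 0.0101 to 0.0119).

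Taken hairpin by hairpin against Empty Vector, Wapal shRNA1 lowered Tet2 (-0.81 ± 0.11, adjusted p = 0.0107), 1 of 8 members where 6.03% of all genes were called. Dnmt1 stood at -0.67 ± 0.16 with this hairpin and was not called (adjusted p = 0.0548) by this probe set, whereas its probe set 1422946_a_at fell by 0.65 (adjusted p = 0.0325). The second Uhrf1 probe set, 1415811_at, also fell, by 0.57 (adjusted p = 0.0401). With Wapal shRNA2, under which Wapl itself was lower, 1 of 8 was called where 4.81% of all genes were: the dim Tet3 rose by 0.59 (adjusted p = 0.0441), and Tet2 stood at -0.49 (adjusted p = 0.0511). The other Tet2 probe set, 1438781_at, fell by 0.77 (adjusted p = 0.0304), and 1423066_at of Dnmt3a rose by 0.63 (adjusted p = 0.024). Smc3 shRNA1 changed 4 of 8, where 11.6% of all genes were called. Dnmt3b rose by 0.56 (adjusted p = 0.0167) and Dnmt3l by 0.81 (adjusted p = 0.00563). Uhrf1 fell by 0.54 (adjusted p = 0.0446) and Tet2 by 0.70 (adjusted p = 0.00599) with the same hairpin. With Smc3 shRNA2 4 of 8 were also called, against 9.52% of all genes. Dnmt3a rose by 0.72 (adjusted p = 0.00574), Dnmt3b by 0.72 (adjusted p = 0.00697) and Dnmt3l by 0.88 (adjusted p = 0.0046), and Tet2 fell by 0.71 (adjusted p = 0.00649).

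Set directly against each other, Wapal shRNA1 and shRNA2 differed by limma in no member, where 1.46% of all genes were called. At an unadjusted p under 0.05, 3 were lower with shRNA1, with no share of all genes at that threshold beside them. The sizes were -0.56 ± 0.16 for Dnmt1 (adjusted p = 0.144), -0.56 ± 0.126 for Tet3 (adjusted p = 0.0807) and -0.33 ± 0.11 for Tet2 (adjusted p = 0.194). Between Smc3 shRNA1 and shRNA2, 1 member was called, against 12.5% of all genes. Dnmt3a was lower with shRNA1 (-0.48 ± 0.103, adjusted p = 0.0226), and this call was lost without any 1 of the 4 Smc3 arrays (adjusted p = 0.0969 to 0.15). Its other probe sets gave mixed results, -0.48 for 1423066_at (adjusted p = 0.0413), -0.45 for 1423063_at (0.0702), -0.29 for 1423065_at (0.185) and 0.16 for 1460324_at (0.573), the last in the other direction. Smc3 itself read 187 and 176 with shRNA1 and 223 and 189 with shRNA2.

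The genes around this machinery were described from lists written with textbook knowledge and with earlier results of these data known. Their counts are thus a description and no independent support. Each count below is to be read beside the shares over all genes, of which 2.63% rose and 4.93% fell in Wapal depletion and 6.08% rose and 3.94% fell in Smc3 depletion. Of 21 cofactors and regulators of the methyltransferases, 1 rose and 3 fell in Wapal depletion (median log2 change -0.18, against 0.012 over all genes), and 1 rose and 3 fell in Smc3 depletion (median -0.024). Prdm14, a transcriptional repressor known in ESCs for holding down Dnmt3b and Dnmt3l, read 298 and 310 on the Smc3 shRNA1 arrays and 208 and 176 on the Smc3 shRNA2 arrays, against 670 and 763 in Empty Vector. It fell by 1.57 ± 0.107 (adjusted p = 0.00023) and kept its call whichever array was left out. On the Wapal arrays Prdm14 read 418 and 356 (shRNA1) and 658 and 625 (shRNA2). It fell by 0.52 over both hairpins (adjusted p = 0.0343), with shRNA1 at -0.89 and shRNA2 at -0.16, which did not pass without any 1 of the 6 arrays (adjusted p up to 0.105). Prdm14 was higher in Wapal than in Smc3 depletion by 1.05 (adjusted p = 5.89e-05). Prdm14 was thus lowest on the 4 arrays on which Dnmt3b and Dnmt3l were highest. With Wapal shRNA1 alone, Prdm14 was also called lower (-0.89, adjusted p = 0.0119). Dnmt3b stood at -0.14 with that hairpin and Dnmt3l at 0.024 (adjusted p = 0.569 and 0.94). A part of Prdm14 in the values of Dnmt3b and Dnmt3l was not tested.

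Dppa3, which shields 5-methylcytosine in the zygote, rose by 0.59 in Wapal depletion (adjusted p = 0.0348) and by 0.48 in Smc3 depletion (adjusted p = 0.0368), but Smc3 shRNA2 read 58 and 54, against 46 and 57 in Empty Vector. Trim28, the corepressor that KRAB zinc-finger proteins recruit, and Ehmt1, a histone H3 lysine 9 methyltransferase, fell in Wapal depletion by 0.39 and 0.38 (adjusted p = 0.0491 and 0.0462). Zfp57, a zinc-finger protein that keeps imprints methylated, and Cdca7, which activates the remodeler Hells, fell in Smc3 depletion by 0.55 and 0.35 (adjusted p = 0.0191 and 0.0455). Most of these calls were close to the threshold. In Wapal depletion, calls over all probe sets also became fewer with any 1 array left out. Without any 1 array the number called was 0 in Wapal depletion, or 1 without Empty Vector replicate 2. In Smc3 depletion it was 1 without Empty Vector replicate 1, Smc3 shRNA1 replicate 2 or Smc3 shRNA2 replicate 2, 2 without Smc3 shRNA1 replicate 1 or Smc3 shRNA2 replicate 1, and 3 without Empty Vector replicate 2.

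**Figure D3:**
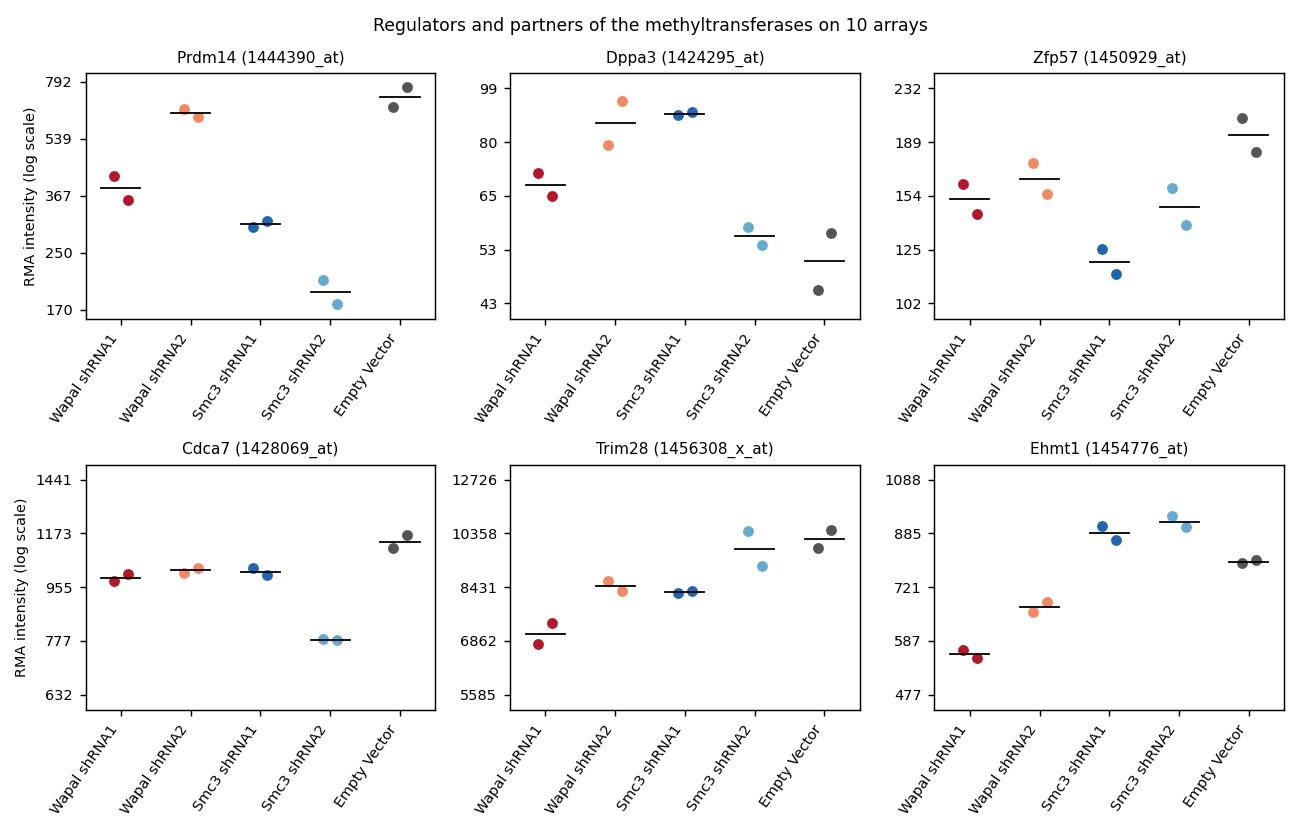
RMA intensity (log axis) of 6 regulators and partners of the methyltransferases that were called in Wapal or Smc3 depletion, on all 10 arrays. Points are arrays and black lines geometric means. Prdm14 reads 176 to 310 on the Smc3 shRNA arrays, below the 356 to 658 of the Wapal shRNA arrays and the 670 and 763 of Empty Vector.

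A list of 13 measured genes held base excision genes, the Gadd45 family and the cytidine deaminase Apobec1. Apart from Apobec1, these act after oxidation or deamination of the methylated base. Of the 13, 1 rose in Wapal depletion (median -0.053), where 2.63% of all genes rose. In Smc3 depletion 2 rose and 2 fell (median -0.063), where 6.08% of all genes rose and 3.94% fell. Gadd45g, a stress-inducible member, read 160 and 181 on the Smc3 shRNA1 arrays and 198 and 179 on the Smc3 shRNA2 arrays, against 74 and 77 in Empty Vector. It rose by 1.24 ± 0.099 (adjusted p = 0.000445). In Wapal depletion Gadd45g rose by 0.66 (adjusted p = 0.0103), which missed the threshold without Empty Vector replicate 1 (adjusted p = 0.0514). Gadd45g stood at 0.37 with Wapal shRNA1 (adjusted p = 0.0921) and at 0.95 with shRNA2 (adjusted p = 0.00795). These hairpins differed by 0.59 in Gadd45g (adjusted p = 0.0462). Its difference between Wapal and Smc3 depletion was -0.58 (adjusted p = 0.000578). Ung, the uracil-DNA glycosylase, and Gadd45a fell in Smc3 depletion by 0.65 and 0.57 (adjusted p = 0.00609 and 0.0114), and the cytidine deaminase Apobec1 rose by 0.56 (adjusted p = 0.0161). Gadd45g and Ung kept their Smc3 calls whichever array was left out. Gadd45a lost its call without 2 of the 6 arrays (adjusted p up to 0.068) and Apobec1 without 3 (up to 0.0939), both of them without Empty Vector replicate 1 and without Smc3 shRNA2 replicate 2. Gadd45a stood at -0.27 with shRNA1 (adjusted p = 0.195) and at -0.86 with shRNA2 (adjusted p = 0.00405). The Smc3 hairpins differed by 0.59 in this gene (adjusted p = 0.015), and its call over both was lost with the side as a block. Apobec1 stood at 0.89 with Smc3 shRNA1 (adjusted p = 0.00399) and at 0.23 with shRNA2 (adjusted p = 0.321). These hairpins differed by 0.66 in Apobec1 (adjusted p = 0.0133).

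Among 10 measured cofactors and partners of the Tet enzymes, 2 fell in Wapal depletion (median -0.11). Idh1, which makes the 2-oxoglutarate that Tet enzymes consume, fell by 0.72 (adjusted p = 0.00729), and Hcfc1, found in complexes with the sugar transferase Ogt, by 0.56 (adjusted p = 0.0258). Hcfc1 lost its call without 5 of the 6 arrays, all but Empty Vector replicate 1. In Smc3 depletion none of the 10 was called by limma at its brightest probe set (3 at an unadjusted p under 0.05, all lower). Idh1 stood at -0.26 there, while its other probe set was called lower. By its brightest probe set Idh1 stood at -0.0051 with Smc3 shRNA1 and at -0.52 with shRNA2 (adjusted p = 0.987 and 0.0214). These hairpins differed by 0.51 in Idh1 (adjusted p = 0.0189). Idh1 and Hcfc1 were lower in Wapal than in Smc3 depletion (-0.46, adjusted p = 0.00111, and -0.56, adjusted p = 0.00345). Of 13 measured genes of methyl donor synthesis, 2 fell with Wapal shRNAs and 3 with Smc3 shRNAs (medians -0.11 and -0.041). Bhmt, the betaine-dependent homocysteine methyltransferase, read 16 to 25 on the shRNA arrays, against 30 and 39 in Empty Vector, a dim probe set that fell by 0.71 with Wapal and by 0.87 with Smc3 shRNAs (adjusted p = 0.0407 and 0.00463). Shmt1, a folate-pathway enzyme, fell by 0.40 and 0.37 (adjusted p = 0.0468 and 0.0439), and Mat2b, a subunit of the enzyme that makes S-adenosylmethionine, by 0.36 in Smc3 depletion (adjusted p = 0.0496). Shmt1 and Mat2b sat at the threshold and lost these calls whichever of the 6 arrays was left out. Bhmt kept its Smc3 call throughout and lost its Wapal call without 5 of the 6 (adjusted p up to 0.133).

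Of 8 measured methyl-CpG readers, the proteins that bind the finished mark, none was called in Wapal depletion by limma at its brightest probe set (4 at an unadjusted p under 0.05, all lower). Of 3 Mbd4 probe sets, 1 was called lower there. In Smc3 depletion Mbd1 fell by 0.49 (adjusted p = 0.0438), a call lost without 5 of the 6 arrays. Of the 5 Mbd1 probe sets, only this 1 was called lower. Of 4 Zbtb4 probe sets, 1 that is not the brightest was called higher in Smc3 depletion.

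Germline genes known in mouse for silencing by promoter methylation made up the longest list, with 24 genes, of which 23 were measured and 5 were dim. Several were plainly detected in Empty Vector, such as Tex19.1 (798 and 844), Syce1 (757 and 652) and Dazl (669 and 742). Whether their promoters were methylated in these cells was not measured. This list, too, was written with earlier results of these data known. In Wapal depletion 9 rose and 2 fell, where 2.63% of all genes rose and 4.93% fell, and in Smc3 depletion 12 rose, where 6.08% of all genes did. The median log2 change was 0.35 in Wapal and 0.39 in Smc3 depletion, against 0.012 over all genes, and 20 and 21 of the 23 changes were positive. Mael, which acts in transposon silencing in testis, read 924 and 877 on the Wapal shRNA1 arrays, 584 and 558 on the Wapal shRNA2 arrays, 625 and 631 on the Smc3 shRNA1 arrays and 588 and 667 on the Smc3 shRNA2 arrays, against 313 and 349 in Empty Vector. It rose by 1.12 ± 0.0955 in Wapal depletion (adjusted p = 0.00273) and by 0.92 ± 0.0992 in Smc3 depletion (adjusted p = 0.00169). Sycp2, of the synaptonemal complex that pairs meiotic chromosomes, rose by 0.78 and 0.98 (adjusted p = 0.00682 and 0.00488).

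Many germline genes differed between hairpins at an adjusted p under 0.05, a contrast that runs along the array split. Between the Wapal hairpins these were Sycp1, Mael, Ddx4, Taf7l, Tex101, Hormad1, Slc25a31 and Stk31, where 1.46% of all genes differed. Between the Smc3 hairpins they were Sycp1, Sycp3, Taf7l, Tex101, Hormad2, Tdrkh, Mov10l1, Brdt, Slc25a31, Tex11, Tex19.1 and Stag3, where 12.5% of all genes did. In Wapal depletion Taf7l stood at 1.15 with shRNA1 and -0.053 with shRNA2, and Hormad1 at 1.01 and 0.17. Sycp1, also of the synaptonemal complex, read 188 and 173 on the Wapal shRNA1 arrays and 71 and 75 on the Wapal shRNA2 arrays, against 68 and 64 in Empty Vector, and rose by 0.79 over both (adjusted p = 0.00677). The change was 1.44 for shRNA1 and 0.14 for shRNA2, and the hairpins differed by 1.31 (adjusted p = 0.00955). The Sycp1 call over both hairpins was lost with the side as a block. Slc25a31, the ADP/ATP carrier of male germ cells, rose by 0.75 in Wapal depletion (adjusted p = 0.00676), with 1.21 for shRNA1 and 0.28 for shRNA2. In Smc3 depletion the testis surface protein gene Tex101 rose by 0.98 (adjusted p = 0.00208) and Taf7l, a germ-cell paralog of a TFIID subunit, by 0.73 (adjusted p = 0.00375). Taf7l stood at 1.01 with Smc3 shRNA1 and at 0.46 with shRNA2, and these hairpins differed by 0.55 (adjusted p = 0.0188). The Tex101 probe set is dim and read 40 and 35 in Empty Vector. Tex101 stood at 0.62 with Smc3 shRNA1 and at 1.35 with shRNA2, a called difference between these hairpins (-0.73, adjusted p = 0.011). The 2 that fell in Wapal depletion, Piwil2 (-0.51, adjusted p = 0.0316) and Stk31 (-0.67, adjusted p = 0.012), are named after their values were seen. Piwil2 lost its call whichever of the 6 arrays was left out and with quantile normalization. Stk31 stood at -0.11 with shRNA1 (adjusted p = 0.631) and at -1.23 with shRNA2 (adjusted p = 0.00532). These hairpins differed by 1.12 in Stk31 (adjusted p = 0.0118), and its call over both was lost with the side as a block. The number of germline genes called in Wapal depletion was 5 without Empty Vector replicate 1, 7 without Empty Vector replicate 2, 6 without Wapal shRNA1 replicate 1, 6 without either Wapal shRNA2 array and 8 without Wapal shRNA1 replicate 2. In Smc3 depletion it was 7 without Empty Vector replicate 1 or Smc3 shRNA2 replicate 2 and 8 to 10 without another array. With the side of the array split as a block 7 were called in each comparison. Calls over all probe sets moved with these settings as well, and in Wapal depletion became fewer with any 1 array left out.

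**Figure D4:**
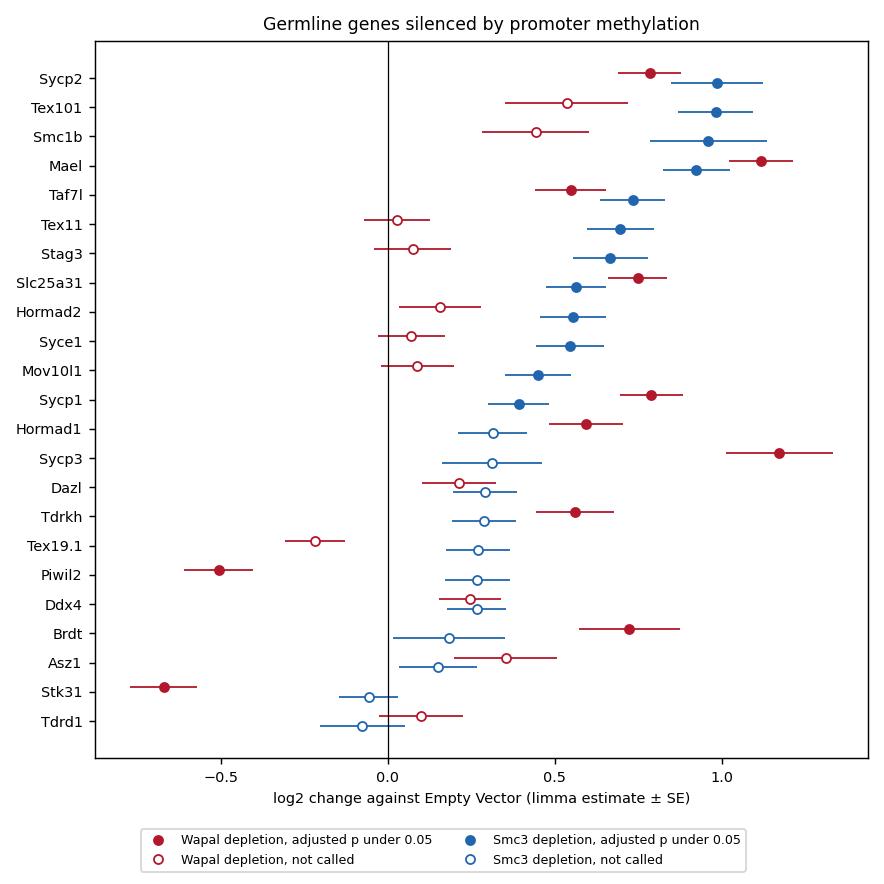
Log2 change against Empty Vector (limma estimate ± SE) of 23 germline genes known for silencing by promoter methylation, in Wapal depletion (red) and Smc3 depletion (blue), sorted by the Smc3 value. Filled points passed an adjusted p under 0.05, 11 in Wapal depletion (9 higher, 2 lower) and 12 in Smc3 depletion, all higher.

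Across the 10 arrays, the genes whose log2 intensity followed a member most closely were sought among 9689 brightest probe sets with a mean of at least log2 6. These correlations describe 10 arrays that share 5 treatments, and carry no test. For Dnmt3l the nearest were Pdlim1 (Pearson r = 0.994), Sparc (0.985) and Fzd7 (0.984). Dnmt3b was followed by Tenm3 (0.981), Slc19a2 (0.98) and Gxylt1 (0.98), and Dnmt3a by Fstl1 (0.947), Klf12 (0.94) and Cep41 (0.928). For Tet2 they were Calcoco2 (0.97), Dipk1b (0.968) and Esrrb (0.966), a nuclear receptor of the ESC network that also stands in the marker list above. Dnmt1 was followed by Coq6 (0.972), Mybbp1a (0.958) and Ddx54 (0.954), and Tet1, the least closely matched of the 6, by Iqcc (0.903), Ahctf1 (0.9) and Enpp4 (0.9).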

How the data were processed

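RNA of 10 samples was measured on Mouse Genome 430 2.0 arrays (Affymetrix). The authors deposited linear intensity values per probe set made with RMA (background correction, quantile normalization, probe summary), whose version is not given in the sources used here, nor is a genome build. After 64 control probe sets were left out of 45101, log2 intensity was fitted in R 4.3.3 with limma 3.58.1 (lmFit, eBayes, 1 mean per group, two-sided), and p-values were adjusted by Benjamini-Hochberg over 45037 probe sets. Each target was fitted with Empty Vector on 6 arrays, and Wapal against Smc3 on all 10. The fits with the side as a block had 1 mean per target instead, with the hairpins pooled. A probe set was called at an adjusted p under 0.05, and dim means a mean under log2 6. A gene was counted by its brightest single-symbol probe set, while 932 probe sets with several symbols and 9160 with none were not named. Intensities of different probe sets were not compared. Named were all members, up to 4 called genes of smallest p per list and depletion, the 3 genes most correlated with each called member, and the targets. Further germline genes, such as those called between hairpins, were named after their values were seen. Members and lists were chosen with earlier results of these data known. The alternatives were quantile normalization, an offset of 16, dim probe sets left out, a replicate block, the side of the array split as a block, a trended robust prior, other array sets, any probe set of a gene and each array left out. The test was tried on simulated data. The number of arrays limits the precision.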

Additional observations from a re-analysis of the deposited data

Results flagged for a closer look

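The members below differed between the depletions by a direct test (limma on all 10 arrays, Wapal minus Smc3, log2). Dnmt3b stood at -0.84 (adjusted p = 0.000115) and Dnmt3l at -0.70 (adjusted p = 0.000357), with no overlap between the 4 Wapal and the 4 Smc3 shRNA arrays. Dnmt1 stood at -0.38 (adjusted p = 0.0427), and its second probe set 1422946_a_at at -0.38 (adjusted p = 0.0137), while the third, 1447877_x_at, gave -0.22 (adjusted p = 0.175). The call of Dnmt1 was lost with quantile normalization (adjusted p = 0.0656), with the replicate number as a block (0.0552) and with the side of the array split as a block (0.112). Tet1 stood at 0.30 (adjusted p = 0.03), with 1419896_at at 0.34 (adjusted p = 0.0152) 1429448_s_at at 0.26 (adjusted p = 0.0522) and 1419897_at at 0.033 (adjusted p = 0.814). Groups of 2 arrays are too small to look for a single array that stands apart.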

How the results depend on the processing

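For the 8 members and 5 comparisons, 531 alternative values of the log2 change were computed. Of these, 473 kept their direction and side of the threshold, 25 lost a call, 19 gained one and 14 changed sign. Many of the alternatives could not alter the log2 change, so that its direction was fixed in advance. This holds for dim probe sets left out, either block, the trended robust prior and other array sets. It also holds for leaving out an Empty Vector array where Empty Vector is not in the difference. There only the side of the threshold could change. In Wapal depletion, where Tet2 was called, the number of members called was 2 with an offset of 16 (Dnmt3a, Tet2), 3 with dim probe sets left out (Dnmt3a, Uhrf1, Tet2), 2 with the side as a block (Dnmt1, Tet2), 4 with the trended robust prior (Dnmt1, Dnmt3a, Uhrf1, Tet2), 2 with all 10 arrays in the fit and 2 by any probe set (Dnmt3a, Tet2 in both), and 0 to 1 with an array left out (0 without Empty Vector replicate 1). In Smc3 depletion it was 3 to 5 throughout. Dnmt3a was not called there with the side as a block (adjusted p = 0.0688), and the trended robust prior added Uhrf1 (adjusted p = 0.0291). For Wapal against Smc3 it was 2 to 4 with an array left out and 5, Dnmt3a added, with an offset of 16 (adjusted p = 0.043), with dim probe sets left out (0.0441) and by any probe set, and Dnmt1 was lost with quantile normalization (adjusted p = 0.0656). Between the Wapal hairpins it was 2 with the trended robust prior (Dnmt1, Tet3), 1 with all 10 arrays (Tet3) and 0 to 2 with an array left out (2 without either Empty Vector array). Between the Smc3 hairpins it was 2 with the trended robust prior (Dnmt3a, Uhrf1) and 0 to 1 with an array left out. None of the values that changed sign was called. For Dnmt1 in Smc3 depletion quantile normalization gave 0.025 and leaving out an array -0.25 to 0.22, and for Tet3 there leaving out an array gave -0.032 to 0.28. For Uhrf1 in Wapal against Smc3 the range was -0.048 to 0.074. Between the Smc3 hairpins quantile normalization gave -0.016 for Tet2 and 0.015 for Tet3, with ranges of -0.052 to 0.081 and -0.064 to 0.043. The cause of these shifts was not tested. Calls over all probe sets moved with the setting too. In Wapal depletion these were 937 higher and 1724 lower as reported. They were 1591 and 2976 with the trended robust prior, and 1636 and 2628 with all 10 arrays. They became fewer with any 1 of the 6 arrays left out. In Smc3 depletion they were 1900 and 1534 as reported, and 2588 and 2413 with the trended robust prior. Between the Wapal hairpins this prior took them from 177 and 321 to 1126 and 1164. With the replicate number as a block (replicate block), 1 member was called for Wapal, 4 for Smc3, 3 for Wapal against Smc3 (Dnmt1 lost, adjusted p = 0.0552), 0 between the Wapal and 1 between the Smc3 hairpins. Replicates of like number share only that number, since their deviations correlated between -0.156 and 0.0569 over the pairs of groups. Alternatives for the lists were chosen after seeing the data. The arrays held 59.6% to 60.1% of probe sets under log2 6, where Tet3 lies, and the log2 difference between replicates had an SD of 0.25 in Empty Vector and 0.19 to 0.203 in the shRNA groups.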
